A study of Mus musculus with 24 samples.

Results

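This account describes 539 promoter peaks that were less accessible in germinal center (GC) B cells of mice with combined heterozygous loss of Crebbp and Kmt2d. They were chosen from the values themselves. Of 65483 consensus peaks of an assay for transposase-accessible chromatin with sequencing (ATAC-seq), 14902 were autosomal, lay within 1000 bases of an annotated transcription start site (TSS) and reached a mean of 3 CPM or more in WT mice (CPM is the fragment count scaled to a common library total). The 539 were those whose log2 ratio of the mean CPM in CK mice to that in WT mice, with 0.1 CPM added to each mean, was at or below -0.3. They made up 3.62% of the promoter peaks, and 1516 promoter peaks stood at or above 0.3.

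GC B cells were sorted from the spleens of mice 10 days after immunization with sheep red blood cells (SRBC). WT mice (4 mice) carried Cγ1 cre/+ alone, C mice (4 mice) Cγ1 cre/+ with Crebbp fl/+, K mice (4 mice) Cγ1 cre/+ with Kmt2d fl/+, and CK mice (5 mice) Cγ1 cre/+ with both floxed alleles. All 17 mice therefore carried the Cre allele, which is driven from the locus of an immunoglobulin constant region that activated B cells transcribe, so deletion was limited to such cells and 1 allele of each floxed gene was left intact. The mice were on a C57BL/6J background, and their age is not given in the labels. Each library was from 1 mouse.

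CREBBP is an acetyltransferase that marks histones at enhancers and promoters, among them lysine 27 of histone H3, and KMT2D is a methyltransferase that marks lysine 4 of the same histone, mainly at enhancers. Promoters fall into classes by sequence. CpG-rich promoters are open in most cell types, whereas CpG-poor promoters tend to be open in particular cell types and to depend on lineage factors bound near the start site. The GC is the site where B cells mutate their receptors and are selected, and mutation of both genes is frequent in lymphomas that arise from it.

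The libraries held 17483706 to 21857738 fragments in peaks. Summed over the promoter peaks of 6 GC B cell markers, including Bcl6 and S1pr2, the level was 343 to 399 CPM in every library. Markers of B cells in general summed to 486 to 554 CPM. Those of naive or memory B cells summed to 261 to 291 CPM and those of plasma cells to 287 to 306 CPM. These sums therefore do not separate GC B cells from other cells of the B lineage. Myeloid markers summed to 5.47 to 8.48 CPM, with no promoter peak at Itgam, Lyz2 or Mpo. Of 6 T cell markers, Cd3e, Cd3g, Cd4 and Cd8a had no promoter peak, and the other 2 markers summed to 48.1 to 61.0 CPM. None of the promoter peaks of these marker genes was among the 539. The promoter peaks of Crebbp (36.5 to 46.9 CPM) and Kmt2d (40.2 to 45.3 CPM) lie outside the floxed parts and do not check the deletion. Peaks at genes of the Y chromosome carried 57.5 to 63.7 CPM in 9 libraries (WT replicates 1 and 2, C 1 and 2, K 1, 3 and 4, CK 1 and 4) and at most 0.0558 CPM in the other 8. The study describes its mice as female, and the selection used autosomes alone.

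Of the 539, 5 are shown first as sequence, because much of the comparison with other promoter peaks below concerns sequence. Each line is the central 300 bases of a peak on the plus strand of the reference genome (GRCm38, the same build as mm10), with matches to 4 motifs in capitals on either strand: the octamer bound by OCT factors (ATGCAAAT), the AP-1 site (TGANTCA), the site of the lineage factors PU.1 and SPIB (GAGGAAGT) and the GC box of SP and KLF factors (GGGCGG). Ncor1 and Gm31410 show an octamer, Kidins220 a PU.1/SPIB site and Manba no match, while 1700030C10Rik shows the GC boxes that were scarce among the closing peaks.
Ncor1 (chr11:62330618-62330917): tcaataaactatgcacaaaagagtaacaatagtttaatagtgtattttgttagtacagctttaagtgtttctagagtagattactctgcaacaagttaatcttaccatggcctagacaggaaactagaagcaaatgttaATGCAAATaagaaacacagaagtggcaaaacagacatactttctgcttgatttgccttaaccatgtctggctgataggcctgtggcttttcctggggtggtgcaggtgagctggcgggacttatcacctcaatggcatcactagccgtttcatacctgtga
Gm31410 (chr9:116219492-116219791): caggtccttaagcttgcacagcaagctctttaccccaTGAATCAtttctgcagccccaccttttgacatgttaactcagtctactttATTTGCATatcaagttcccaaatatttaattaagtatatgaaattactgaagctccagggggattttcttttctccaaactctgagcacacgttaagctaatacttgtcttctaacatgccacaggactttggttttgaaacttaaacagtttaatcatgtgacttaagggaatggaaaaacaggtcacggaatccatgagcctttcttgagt
Kidins220 (chr12:25054661-25054960): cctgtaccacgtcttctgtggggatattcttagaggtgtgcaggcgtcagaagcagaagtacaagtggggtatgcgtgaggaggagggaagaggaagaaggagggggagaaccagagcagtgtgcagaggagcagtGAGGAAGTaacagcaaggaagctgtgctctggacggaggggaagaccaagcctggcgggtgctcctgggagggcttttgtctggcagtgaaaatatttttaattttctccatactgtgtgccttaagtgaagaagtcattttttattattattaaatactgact
Manba (chr3:135516889-135517188): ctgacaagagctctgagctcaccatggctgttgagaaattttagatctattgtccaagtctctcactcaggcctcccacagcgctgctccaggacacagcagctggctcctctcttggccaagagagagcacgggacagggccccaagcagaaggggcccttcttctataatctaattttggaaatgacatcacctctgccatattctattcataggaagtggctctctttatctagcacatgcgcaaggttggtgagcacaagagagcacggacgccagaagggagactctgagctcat
1700030C10Rik (chr12:20815551-20815850): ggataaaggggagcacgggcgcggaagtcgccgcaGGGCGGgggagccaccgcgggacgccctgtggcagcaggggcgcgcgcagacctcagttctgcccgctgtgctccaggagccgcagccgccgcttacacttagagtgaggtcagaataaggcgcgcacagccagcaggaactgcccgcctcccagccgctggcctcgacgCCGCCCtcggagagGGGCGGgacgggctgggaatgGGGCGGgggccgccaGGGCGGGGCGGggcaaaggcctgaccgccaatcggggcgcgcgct

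The closing promoter peaks were CpG-poor. The ratio of observed to expected CpG over the whole peak was under 0.5 in 511 of 539 (94.8%), against 5265 of 14902 promoter peaks (35.3%) and 369 of the 1516 peaks at or above 0.3 (24.3%). The median ratio was 0.19 in closing peaks and 0.61 in all promoter peaks. Put the other way, 9.71% of CpG-poor promoter peaks and 0.291% of the 9637 others were among the 539. Their median GC content was 46.9%, against 55.3% over all promoter peaks and 60.0% in those at or above 0.3. The 3178 distal peaks at or below -0.3 in CK, more than 1000 bases from any TSS, were much like them, with 99.5% CpG-poor, a median GC content of 45.6%, a median WT level of 7.32 CPM and median values of -0.12 (C), -0.33 (K) and -0.42 (CK). Over all 22696 distal peaks 96.1% were CpG-poor.

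They were also weak. The median WT level was 8.79 CPM (quartiles 4.94 and 16.5), against 32.8 CPM over all promoter peaks. Low level alone did not separate them, since among the 3185 promoter peaks at 3 to 10 CPM the share that closed was 13.2% of CpG-poor peaks and 1.48% of the others. At 30 to 100 CPM the corresponding shares were 3.49% and 0.12%. The peaks at or above 0.3 were as weak (median 7.79 CPM) and mostly CpG-rich.

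**Figure D1:**
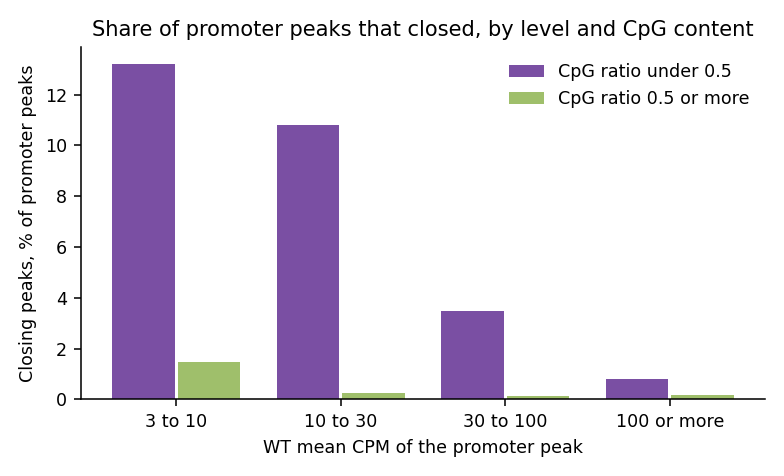
Bars give the percentage of promoter peaks (WT mean of 3 CPM or more) that were among the 539 closing peaks, in 4 classes of WT mean CPM on the horizontal axis, for peaks with an observed to expected CpG ratio under 0.5 (purple) and of 0.5 or more (green). CpG-poor peaks stand above the others in every class, at 13.2% against 1.48% in the weakest, and the CpG-poor share falls with the level.

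The level also moved with GC content. Over all promoter peaks the median log2 ratio of CK to WT was -0.09 for peaks under 45% GC and 0.20 for those at 65% GC or more. In K these medians were -0.09 and 0.17, and in C 0.00 and 0.01, so the difference of K from C also moved with GC content. When each library was centred within 20 classes of GC content, the same rule gave 541 peaks, of which 466 were shared (86.5% of the original 539), and 91.1% of the 541 were CpG-poor. In bulk libraries, fewer cells with an open site and a less open site in every cell cannot be told apart.

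For many of the closing peaks the nearest start site was not the most 5′ one of its gene. A TSS lay inside the peak in 57.9% of closing peaks and in 87.8% of all promoter peaks. The nearest TSS belonged to a protein-coding gene in 334 of the 539 (62.0%, against 87.4% of all promoter peaks), to a long intergenic RNA in 50 (9.28% against 3.93%) and to a processed pseudogene in 45 (8.35% against 1.91%). For 241 of the 334 coding peaks (72.2%) the nearest TSS was more than 1000 bases from the 5′ end of its gene, against 24.8% of the coding promoter peaks in all. Such a peak lay within 1000 bases of that TSS and did not always hold it. Micro-RNA genes were nearest to 11 of the 539 and to 99 of all promoter peaks, and immunoglobulin gene segments to 11 and 51, with CK values of -0.59 to -0.33 for the 11 immunoglobulin peaks.

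For 243 of the 334 coding peaks the gene had another promoter peak at or above 3 CPM, 315 peaks in all. Of these, 33 (10.5%) were themselves among the 539, against 3.62% of all promoter peaks. The 315 had a median log2 ratio of CK to WT of 0.01 (quartiles -0.11 and 0.11) and a median WT level of 38.3 CPM, and 59% were CpG-rich. At Setd2, the histone H3 lysine 36 methyltransferase, the internal peak had a CK value of -1.06 from a WT mean of 3.83 CPM, while the main promoter peak had 0.09 from 74.5 CPM. At Jak1, the kinase of many cytokine receptors, the values were -0.35 (21.1 CPM) and 0.20 (50.6 CPM). At Ncor1, a nuclear corepressor, they were -0.47 (11.2 CPM) and 0.01 (65.3 CPM).

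Short motifs differed between the closing peaks and promoter peaks as a whole. The comparison is given within CpG-poor peaks because CpG content bears on the frequency of GC-rich words. CpG and GC content were not matched further within that class, and their part in these shares was not tested. In the central 300 bases, the octamer ATGCAAAT was present in 46 of 511 CpG-poor closing peaks (9.0%) and in 3.44% of all 5265 CpG-poor promoter peaks. The AP-1 site TGANTCA was present in 14.3% against 7.84%. The GC box GGGCGG went the other way, at 6.46% against 17.3%, as did the ETS site CCGGAAG (1.96% against 4.16%). The PU.1/SPIB site GAGGAAGT (5.87% against 5.47%), the interferon regulatory factor word GAAANNGAA (11.4% against 10.5%) and the STAT word TTCNNNGAA (8.41% against 8.74%) were near the share of CpG-poor promoter peaks. Distal peaks, further than 1000 bases from a TSS, held the octamer in 5.08%, and the 3178 of them at or below -0.3 in CK held it in 6.77%. The AP-1 site was in 10.4% of distal peaks and 12.8% of those 3178. For the GC box the shares were 8.51% and 5.16%, and for the ETS site 2.46% and 1.57%. In these 3 words the closing promoter peaks were thus near distal peaks, most of which were CpG-poor. Closing promoter peaks with the octamer had a median K value of -0.33 and those without it -0.32. A match is a description of the letters and not a bound site.

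**Figure D2:**
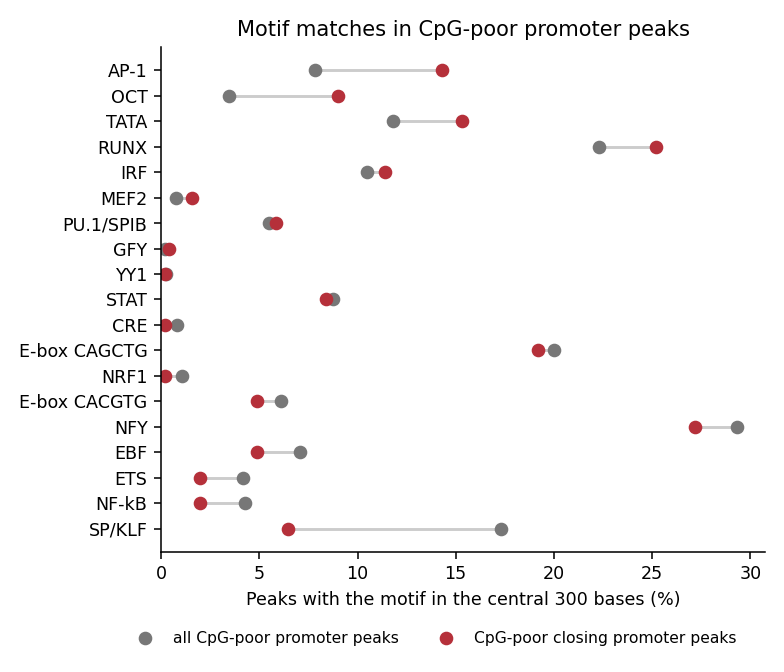
Each row is 1 of 19 short motifs and the horizontal axis is the percentage of peaks with a match on either strand in the central 300 bases. Red points are the 511 CpG-poor closing promoter peaks and grey points all 5265 CpG-poor promoter peaks, with AP-1 (14.3% against 7.84%) and OCT (9.0% against 3.44%) at the top and SP/KLF (6.46% against 17.3%) at the bottom.

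The values in C and K show how the closing peaks stood with the loss of 1 gene. Both genotypes were compared with the same 4 WT mice that the selection used, so their values lean below 0 by choice and are given side by side as a description. The median log2 ratio was -0.12 in C and -0.32 in K, with -0.41 in CK, against 0.01, 0.05 and 0.05 over all promoter peaks. K stood below WT at 532 of the 539 and C at 432. In C, 86 peaks were at or below -0.3 (16%, against 0.852% of all promoter peaks), and in K 55.5% were, against 2.8%. By this limit 62 closed in both single heterozygotes, 237 in K alone, 24 in C alone and 216 in neither. The 216 were shallower, with medians of -0.11 (C), -0.21 (K) and -0.35 (CK). These classes do not set CK apart from K. With edgeR at an adjusted p below 0.01, 0 of the 539 were called lower in CK than in K. Against C, 58 (10.8%) were called lower in CK. Over all 65483 peaks, 3 were lower in CK than in K and 504 lower in CK than in C. At an adjusted p below 0.05, edgeR called 3 of the 539 lower in CK than in K, with 14 of all peaks. DESeq2 called 6 of the 539 lower in CK than in K at 0.01, with 19 of all peaks. The selection used CK, so these counts are a description.

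Per mouse, the median over the 539 peaks of log2 CPM against the WT mean was -0.10, -0.07, 0.03 and 0.10 in WT replicates 1 to 4. It was -0.18, -0.19, -0.08 and -0.07 in C. It was -0.43, -0.35, -0.28 and -0.25 in K. The 4 C mice overlapped the WT mice, whereas every K mouse was below every C mouse. The 5 CK mice ran from -0.51 to -0.38, overlapping K mice. Within WT and within C, the libraries with Y chromosome signal were the lower ones, at -0.10 and -0.07 in WT and at -0.19 and -0.18 in C. Without that signal, WT mice had 0.03 and 0.10 and C mice -0.08 and -0.07. Within each kind of library the 2 C mice were below the 2 WT mice. The selection used all 4 WT mice, so this order leans on the choice of peaks and is a description. With the Y-signal libraries alone (2 WT, 2 C, 3 K and 2 CK) the median values were -0.09 (C), -0.23 (K) and -0.39 (CK). With the others (2 WT, 2 C, 1 K and 3 CK) they were -0.16, -0.44 and -0.48.

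**Figure D3:**
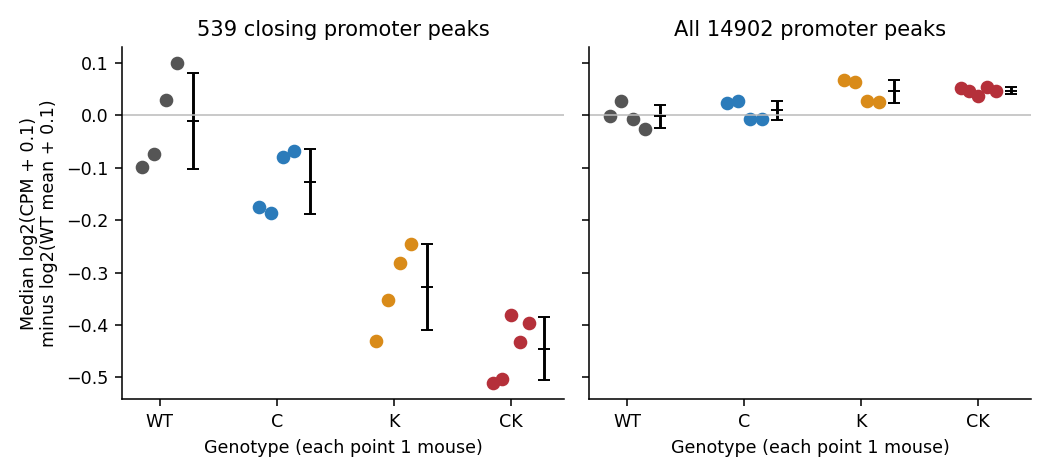
Each point is 1 mouse and gives the median, over the 539 closing promoter peaks (left) or all 14902 promoter peaks (right), of log2(CPM + 0.1) minus the log2 of the WT mean, with the mean and SD of each genotype in black (4 WT, 4 C, 4 K and 5 CK mice). On the left the C mice lie between -0.19 and -0.07 and the K mice between -0.43 and -0.25, while on the right all mice lie within 0.1 of 0.

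The difference of K from C rests on the means of K and C mice, which the selection did not use, and is the one on which the closing peaks could be tested. WT and CK mice entered the fit through the shared spread, and with C and K mice alone 26 were called lower and 3 higher. In the fit of edgeR over all 65483 peaks and 17 libraries, 28 of the 539 (5.19%) were lower in K than in C at an adjusted p below 0.01 and 6 (1.11%) were higher. Over all peaks these calls came to 0.505% lower and 0.283% higher. The median log2 difference of K from C was -0.17 over the closing peaks and 0.00 over all peaks. Centred within classes of GC content, these medians were -0.14 and 0.01. In that fit 24 closing peaks were called lower and 6 higher, with 245 lower and 129 higher over all peaks. All 4 K mice were below all 4 C mice at 139 closing peaks (25.8%), against 6.59% of all peaks, and above them at 7 (1.3%), against 4.28%. DESeq2 called 48 lower and 7 higher, with 0.98% and 0.797% of all peaks. With 1 library left out the total called ran from 11 to 39, against 34.

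The 3 peaks with the lowest p in that direction were at Manba, Kctd13 and Scn11a. The Manba peak (chr3:135516624-135517453), at an internal start of the gene of lysosomal beta-mannosidase, had 6.74, 5.67, 7.03 and 5.11 CPM in C and 2.54, 2.79, 2.91 and 2.96 in K. WT mice had 5.64, 5.38, 5.66 and 6.83 CPM and CK mice 3.17, 3.25, 4.00, 3.80 and 3.60. The C mice stood with the WT mice and the K and CK mice below both, without overlap. The log2 difference of K from C was -1.10 ± 0.13 (SE, edgeR adjusted p = 3.69e-05).

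The Kctd13 peak (chr7:126940957-126942243), 13169 bases inside the gene of an adaptor of the cullin-3 ubiquitin ligase, had 8.12, 8.24, 8.63 and 8.41 CPM in C and 4.31, 4.35, 4.76 and 5.83 in K. CK mice had 4.41, 4.44, 4.19, 4.5 and 4.12 CPM, and WT mice 8.41, 7.19, 9.42 and 9.07. Again K and CK separated from C and WT, with a difference of K from C of -0.76 ± 0.11 (SE, edgeR adjusted p = 0.000425). The main Kctd13 promoter peak had values of -0.02 in C, 0.18 in K and 0.17 in CK. At Scn11a, a voltage-gated sodium channel gene, C mice had 9.14 to 10.6 CPM, K mice 5.64 to 6.41 and WT mice 7.22 to 9.04, with a difference of K from C of -0.67 ± 0.10 (SE, edgeR adjusted p = 0.00088).

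Other peaks lower in K than in C, named after their values were seen, lay at Nsd3, a histone methyltransferase (-0.92), at Ebi3, a cytokine subunit (-0.69), at Lcp2, an adaptor of antigen receptor signaling (-0.55), and at Slc23a2, a vitamin C transporter (-0.52). In each of these C was within 0.2 of WT on the log2 scale.

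**Figure D4:**
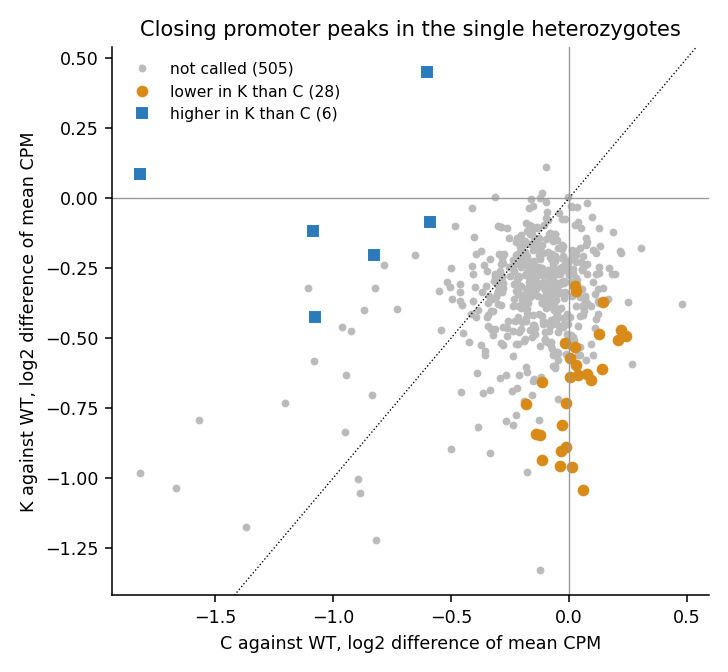
Each point is 1 of the 539 closing promoter peaks, with its log2 difference from WT in C on the horizontal axis and in K on the vertical axis, the dotted line marking equal values. Orange points are the 28 peaks lower in K than in C and blue squares the 6 higher (edgeR adjusted p below 0.01), the orange ones lying close to 0 in C and the blue ones well below 0 in C.

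The 6 peaks higher in K than in C were at Dlec1, Gm43094, 5830416I19Rik, D630024D03Rik, Trim5 and Rhbdf1. At Dlec1 (chr9:119119058-119120223), C mice had 4.54, 4.07, 4.55 and 4.10 CPM and K mice 8.93, 6.14, 10.6 and 10.5, a difference of 1.10 ± 0.16 (SE, edgeR adjusted p = 0.000678). WT mice had 5.61 to 7.60 CPM and CK mice 4.05 to 7.06, so C lay below WT and CK overlapped both. At Gm43094 (chr5:113164595-113165456), C mice had 9.66 to 12.5 CPM and K mice 14.5 to 19.2, a difference of 0.65 ± 0.10 (SE, edgeR adjusted p = 0.00112). At 5830416I19Rik (chr5:64044862-64045597), C mice had 1.29 to 1.83 CPM and K mice 4.07 to 7.79, a difference of 2.0 ± 0.32 (SE, edgeR adjusted p = 0.00129). The CK mice fell into separate levels there, at 1.97, 1.95 and 1.88 CPM in replicates 1 to 3 and at 6.36 and 5.66 in replicates 4 and 5.

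**Figure D5:**
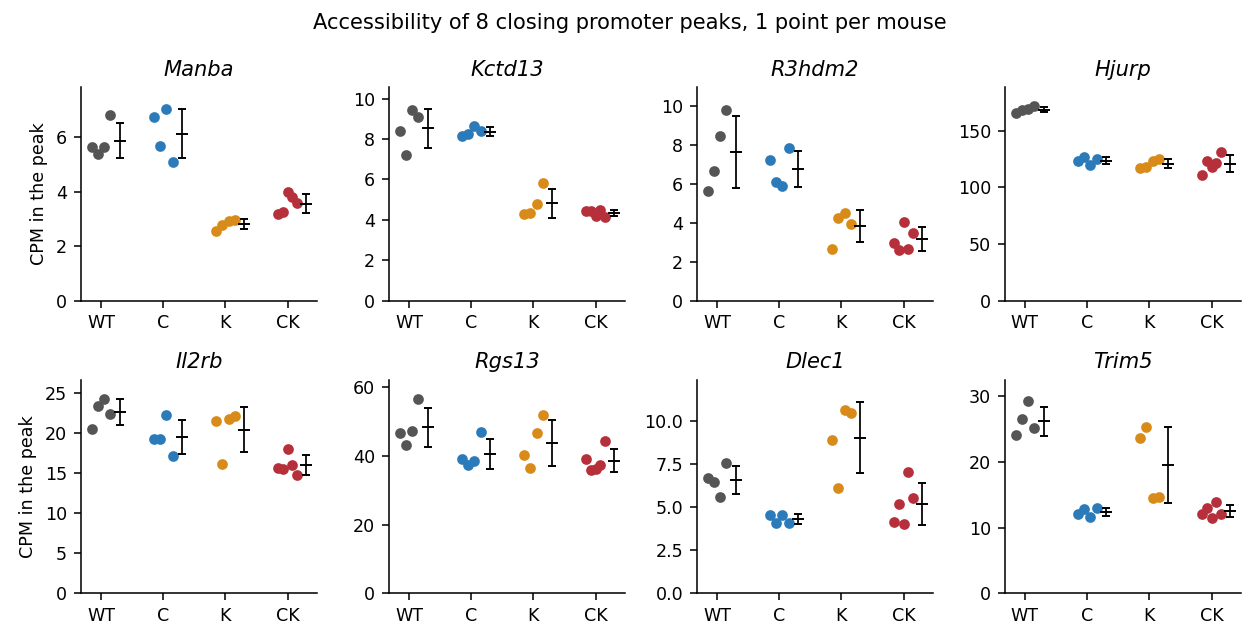
CPM in 8 closing promoter peaks, each panel 1 peak named by the gene of its nearest TSS, with 1 point per mouse (4 WT, 4 C, 4 K and 5 CK) and the mean and SD in black on a vertical axis from 0. Manba, Kctd13 and R3hdm2 are low in K and CK, Hjurp is low in all 3 mutant genotypes, Il2rb is lower in every CK mouse than in any WT mouse with C and K overlapping both, Rgs13 overlaps between genotypes, Dlec1 is low in C and not in K, and the K mice at Trim5 lie at separate levels.

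Against WT, 15 of the 539 were called lower in C (2.78%), 53 in K (9.83%) and 241 in CK (44.7%), and none was called higher by edgeR or by DESeq2. Over all peaks the shares called lower were 0.101%, 0.828% and 3.3% in that order. The CK contrast chose the peaks, and the C and K contrasts share its WT mice, so these counts describe the selection. Same-numbered C and WT libraries deviated together, which cannot be told apart from the Y chromosome signal. With the replicate as a block 23 were called lower in C, against 0.203% of all peaks in that fit. At an unadjusted p below 0.05 in either direction there were 141 in C, where all peaks gave 8.9%, and 372 in K, where they gave 20.6%.

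Of the 15 calls in C, 12 lay in 9 windows of 5 Mb, defined after the values were seen as windows with 3 or more closing peaks and a median C value at or below -0.3. This choice places calls that are low in C inside the windows, so the count describes where they lie. These windows held 49 of the 539 peaks, with medians of -0.41 (C), -0.37 (K) and -0.55 (CK). The other 490 peaks had -0.11, -0.32 and -0.40, with 3 called lower in C, 48 lower in K, and 26 lower and 1 higher in K than in C. Of the 6 calls higher in K than in C, 5 were in the windows.

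In the window with most closing peaks (10 of 67 promoter peaks), 9 peaks between chr7:103792770 and 104508334 lay at Olfr67, at the beta-globin genes Hbb-bt and Hbb-bh1, and at Trim5, Trim12a and Trim30 genes of the tripartite motif family, some of which restrict viruses. The Trim5 peak had 24.1, 26.4, 29.2 and 25.1 CPM in WT, 12.1, 12.8, 11.7 and 12.9 in C and 11.5 to 13.8 in CK. Its 4 K mice had 23.6, 25.3, 14.5 and 14.6 CPM, replicates 1 and 2 with the WT mice and replicates 3 and 4 near the C and CK mice. The median over the 9 peaks moved in the same way, at -0.14, -0.03, -0.96 and -0.84 in the 4 K mice, -1.03 to -0.87 in C and -1.03 to -0.72 in CK. Trim12a, with a CK value of -1.05, had 6.49, 7.03, 3.07 and 3.47 CPM in the K mice.

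Another stretch on chromosome 12 (18609578 to 24252707) held 9 closing peaks at 64.1 to 69.8% GC, among them the 3 lowest CK values of all. These were at 1700030C10Rik (-1.88), the long intergenic RNA gene 2410018L13Rik (-1.62) and 9030624G23Rik (-1.34). The 1700030C10Rik peak had 6.85, 4.35, 10.1 and 9.35 CPM in WT, 1.48, 0.595, 3.72 and 2.61 in C, 1.66, 3.01, 3.34 and 7.31 in K, and 1.45 to 2.92 in CK. C and CK stayed below WT, while K replicate 4 lay within the WT range. Over the 9 peaks the median was -1.78 to -0.49 in C, -1.04 to -0.07 in K and -1.24 to -0.78 in CK. On chromosome 11, 3 peaks at D630024D03Rik, Rhbdf1 and Nprl3 (31824505 to 32238872) had medians of -0.11, -0.07, -0.72 and -0.06 in the 4 K mice and -0.63 to -0.49 in C.

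Among the other peaks with the lowest CK values, R3hdm2 (chr10:127481190-127482596, CK value -1.25) had 5.64, 6.67, 8.47 and 9.79 CPM in WT, 7.22, 6.08, 5.89 and 7.82 in C, 2.65, 4.24, 4.5 and 3.93 in K, and 2.60 to 4.05 in CK. K and CK were below every WT and C mouse. A second internal R3hdm2 peak had -0.78 in CK, and the main R3hdm2 promoter peak 0.25. Sh2d1b1, an adaptor of the SLAM receptors (-1.31), had 3.52 to 5.30 CPM in WT, 2.06 to 4.55 in C, 1.82 to 3.19 in K and 1.25 to 2.63 in CK. Kidins220, a scaffold of receptor signaling (-1.11), had 6.26 to 7.71 CPM in WT and 2.38 to 5.18 in CK, and AC091309.4 (-1.08) had 5.17 to 6.94 and 2.06 to 3.07. The internal Setd2 peak had 3.14 to 4.87 CPM in WT, 2.82 to 3.48 in C, 1.61 to 2.5 in K and 1.52 to 2.52 in CK, with C overlapping WT and K and CK below both.

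The strongest closing peak was the promoter of Hjurp, the chaperone that loads the centromeric histone CENP-A (chr1:88276572-88278094). Its 4 WT mice had 166, 168, 169 and 171 CPM. C mice had 119 to 126 CPM, K mice 117 to 125 and CK mice 111 to 131. All mutant mice were below all WT mice and the 3 mutant genotypes overlapped, with a difference of K from C of -0.01 ± 0.04 (SE, edgeR adjusted p = 0.964). It was 1 of 28 closing peaks with a CpG ratio of 0.5 or more (0.67).

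The Mir142b peak (chr11:87756496-87760016), over the precursor of a micro-RNA of blood cells, had 137 to 150 CPM in WT, 111 to 128 in C, 115 to 124 in K and at most 135 in CK, the mutant genotypes again below WT. The transcripts 2700029L08Rik (70.1 ± 6.1 CPM in WT, 55.8 ± 4.1 in CK, SD, n = 4 and 5) and Gm31410 (68.7 ± 2.8 and 55.3 ± 2.4) came next in level.

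Genes of GC B cell biology were looked up in 16 lists. Over their 392 genes, 487 promoter peaks reached 3 CPM and 13 were among the 539 (2.67%, against 3.62% of all promoter peaks), with a median CK value of 0.01 over the lists and 0.05 over all, so the share was near the background. At list sizes of this order a count of 0 is little apart from that share. No closing peak was at the lists of antigen presentation (25 promoter peaks), immune synapse and T cell help (25), NF-kB (26), GC and B lineage transcription factors (56), exit and fate regulators (30), interferon-stimulated genes (26), AP-1 and immediate early genes (24) or the secretory response (24). Coactivators and chromatin regulators had 4 of 41 peaks, at Dnmt3a, Eed, Ncor1 and Setd2. Chemotaxis and confinement had 2 of 23, cytokine receptors and JAK-STAT 2 of 37, and B cell receptor signaling, Toll-like receptors, apoptosis, cell cycle and DNA repair 1 each, of 34, 22, 33, 47 and 29.

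Among chemotaxis genes, Rgs13, which dampens chemokine receptor signaling in GC B cells, had 46.7, 43.1, 47.2 and 56.5 CPM at its own promoter in WT, 37.4 to 47.1 in C, 36.6 to 51.9 in K and 36.0 to 44.3 in CK, with CK overlapping WT. Ccr7, the receptor that draws B cells toward the T zone, had 8.75 to 9.67 CPM in WT, 7.55 to 10.3 in C, 7.32 to 7.78 in K and 5.86 to 8.77 in CK.

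Il2rb, a subunit of the interleukin-2 and interleukin-15 receptors, had 20.5, 23.3, 24.2 and 22.4 CPM in WT and 15.6, 15.5, 18, 16 and 14.7 in CK. Every CK mouse was below every WT mouse, and C (17.1 to 22.3 CPM) and K (16.2 to 22.1 CPM) overlapped WT. The internal Jak1 peak had 18.7 to 26.2 CPM in WT, 18.4 to 20.9 in C, 17.4 to 22.1 in K and 15.8 to 17.3 in CK. There too every CK mouse was below every WT mouse, and C and K overlapped WT. Low CK values chose both peaks, and edgeR called no closing peak different between CK and K at an adjusted p below 0.01.

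The Dnmt3a peak was at the antisense transcript Dnmt3aos, next to an internal start of the gene of this DNA methyltransferase. It had 16.6, 11.5, 13.7 and 14.5 CPM in C and 9.40, 8.20, 8.10 and 8.70 in K, without overlap. The difference of K from C was -0.68 ± 0.12 (SE, edgeR adjusted p = 0.00259). The Ncor1 peak had 11.1 to 13.1 CPM in C and 7.06 to 9.53 in K (-0.44 ± 0.11, SE, edgeR adjusted p = 0.0296), which missed the threshold of 0.01.

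The remaining listed peaks were near internal starts. Apaf1, of the apoptosome, had 19.7 ± 1.7 CPM in WT and 16 ± 2.6 in CK (SD, n = 4 and 5). Trp53bp1, of DNA break repair, had 4.43 ± 0.62 and 3.53 ± 0.58. Tab2, an adaptor below Toll-like receptors, had 3.14 ± 0.43 and 2.02 ± 0.60 (CK value -0.61), and Cd81, of the B cell coreceptor, 4.10 ± 0.40 and 3.21 ± 0.48. Eed, a subunit of the Polycomb complex that methylates histone H3 and a peak outside the rule for named peaks, had 3.71 ± 0.75 and 2.75 ± 0.37 (CK value -0.42).

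At the limit of -0.3 the peaks just inside were Gm37589 (37.2 CPM in WT, 30.2 in CK) and AC131185.1 (15.4 and 12.5 CPM), both at -0.30. Those just outside were Gapt (9.43 and 7.64 CPM) and Tmc6 (10.0 and 8.10 CPM), also at -0.30 after rounding, so the limit falls within a continuous range.

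The surroundings of the closing promoters were examined in distal peaks, which the selection did not use apart from sharing the WT and CK mice. The 1585 distal peaks at 3 CPM or more within 50 kb of a closing promoter had median values of -0.01 (C), -0.10 (K) and -0.14 (CK), and 24.5% were at or below -0.3 in CK. The 17492 within 50 kb of the other promoter peaks had 0.02, -0.05 and -0.06, with 12.7%. By chromosome, the share of promoter peaks that closed was from 1.72% on chromosome 18 to 6.71% on chromosome 12.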

How the data were processed

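ATAC-seq libraries of 17 mice were analysed from the table of raw fragment counts that the authors deposited, made with featureCounts 2.0.1 (pairs counted, a minimum overlap fraction of 0.2) over 1 set of consensus peaks after alignment to mm10 with the nf-core ATAC-seq pipeline. A marker gene and 1 peak sequence are not reported here. Libraries of centroblasts and centrocytes were not analysed here. Counts were divided by column totals to give CPM, and TSSs were those of all 141767 transcripts of GENCODE M21. Tests used edgeR 4.0.16 (R 4.3.3; quasi-likelihood, TMM, 1 mean per genotype over 17 libraries), with Benjamini-Hochberg adjustment over 65483 peaks and a threshold of 0.01. The authors used a fold limit as well, which is an alternative here. The script was tested on simulated counts. DESeq2 1.42.0, other scalings, a replicate block, GC classes and leaving out each mouse were alternatives. Same-numbered C and WT libraries deviated together (correlations 0.14, 0.16, 0.15 and 0.22). Other comparisons did not pass this check, so their counts with a replicate block are only a repeat under another setting. In WT and C the replicate numbers also follow the Y chromosome signal, and these cannot be told apart. The labels do not say that same-numbered mice share a litter or day. Precision depends on counts and on the spread between mice (common biological coefficient of variation 0.079): 3 CPM corresponds to 52.5 to 65.6 fragments, depending on the library.

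The members and lists were chosen with earlier results of these data known. Named peaks were the 10 with the lowest CK value, the 4 with the highest WT level, up to 3 called in each direction of K against C, up to 2 per gene list by WT level, and the 2 nearest each side of the limit, named by the gene of the nearest TSS.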

Additional observations from a re-analysis of the deposited data

Results flagged for a closer look

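Among the named peaks and the median over all 539, 140 groups of 4 or 5 mice were examined for 1 mouse far from the rest of its group, and 8 were found, where chance gives about 1 in 20. Among CK mice, Kidins220 was high in replicate 1 (5.18 CPM, the others 2.38 to 3.13), Mir142b in replicate 4 (135, the others at most 111), and Setd2 (2.52, the others 1.52 to 1.69) and Gm37589 (35.0, the others 28.1 to 29.9) in replicate 5. AC091309.4 (2.06, the others 2.89 to 3.07) and Scn11a (5.26, the others 6.17 to 6.52) were low in CK replicate 5. Il2rb was low in K replicate 2 (16.2, the others 21.5 to 22.1), and Tmc6, just outside the limit, in WT replicate 1 (8.67, the others 10.3 to 10.6).

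At 8 named peaks the C and K differences from WT differed from each other by the edgeR comparison of K with C (adjusted p below 0.01). Manba, Kctd13, Scn11a, Dlec1, Gm43094 and 5830416I19Rik were named because of that call, so for them the flag was fixed in advance. The log2 differences of K from C were -1.10 at Manba, -0.76 at Kctd13, -0.67 at Scn11a and -0.68 at Dnmt3aos, and 1.10 at Dlec1, 0.65 at Gm43094, 2.0 at 5830416I19Rik and 0.68 at Trim5. At Trim5 and 5830416I19Rik mice of 1 genotype lay at separate levels.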

How the results depend on the processing

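Of 168 repeats of the results under other settings, 133 kept the value within the limits used (1.5 times for counts, 1 SD between mice for medians) and none turned a direction. The number of closing peaks was 342 with protein-coding TSSs only, 164 at a limit of -0.5, and 440 to 627 with 1 WT or CK mouse left out. The median values ran from -0.15 to -0.07 in C, -0.35 to -0.27 in K and -0.45 to -0.39 in CK with 1 mouse left out. In settings added after seeing the data, the K median was -0.23 in libraries with Y signal and -0.44 without it, and the CK median was -0.48 without it.

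Counts of called peaks depended on the setting. For K against C the count was 34 and became 73 at an adjusted p of 0.05, 55 with DESeq2 and 52 with a replicate block. It ran from 11 to 39 with 1 mouse left out: 13, 17, 18 and 12 without C replicates 1 to 4, and 11, 18 and 13 without K replicates 1, 2 and 4. For C against WT it was 15 and became 24 at 0.05, 23 with the replicate block and 23 with only these genotypes. It ran from 5 to 18: 6 and 7 without WT replicates 1 and 3, and 7, 5, 7 and 7 without C replicates 1 to 4. For K against WT it was 53 and became 162 at 0.05, 93 with DESeq2, 111 with the replicate block and 30 with a fold above 1.5. It ran from 16 to 63: 27 and 21 without WT replicates 3 and 4, and 16 and 31 without K replicates 1 and 4. For CK against WT it was 241 and became 405 at 0.05 and 93 with the fold limit, 311 with the replicate block, and ran from 131 (without WT replicate 4) to 252. The cause of these shifts was not tested, beyond fewer mice or another limit.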
